A study of Mus musculus with 8 samples.

Results

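The Slc25a genes encode the mitochondrial carrier family, and their messages were measured here in quadriceps muscle of mice lacking Gpcpd1 in muscle. Members were those of the genes examined here whose mouse symbol is Slc25a followed by a number and that held at least 40 reads summed over the 8 libraries. Of 46 such symbols examined among the 54532 genes in the tables, 38 qualified and 8 held fewer reads. The labels describe mice on chow diet, aged 3 months, in both groups. The 4 control libraries came from Gpcpd1 Flox/Flox mice that were Mck Cre negative, and the 4 knockout libraries from Gpcpd1 Flox/Flox mice that were MckCre positive. Both groups therefore carried the floxed allele, and only the knockout carried Cre, so an effect of Cre and an effect of losing Gpcpd1 cannot be told apart. The Mck promoter drives Cre in striated muscle fibres, so the other cells of the muscle keep Gpcpd1. Whether each library came from its own mouse is not stated in the labels, and the p-values below reflect only library-to-library spread, which may be technical.

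Carriers of this family sit mostly in the inner mitochondrial membrane and exchange nucleotides, phosphate, amino acids, carboxylates and cofactors between the cytosol and the matrix. In working muscle the best known are the ADP/ATP carriers, which export the ATP made by oxidative phosphorylation, the phosphate carrier that supplies its substrate, and the aspartate/glutamate and oxoglutarate carriers of the malate-aspartate shuttle, which brings the reducing power of cytosolic NADH into the matrix. Several members have no established substrate.

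Levels are normalised read counts (CPM), that is, reads scaled to library totals corrected by the TMM method. Each read marks the 3′ end of a message, so counts were not divided by transcript length. Levels are set side by side between genes on that basis. How multiply mapped reads were counted is not given, so levels of close relatives are less certain. In control muscle the 38 members ran from 1.38 CPM (Slc25a45) to 4495 CPM (Slc25a4, the muscle ADP/ATP carrier). Slc25a4 alone held between 64.8% and 67.3% of the reads of the 38 members in the controls and between 68.3% and 72.9% in the knockouts. The next members by control mean were Slc25a3, the phosphate carrier, at 676 ± 58.1 CPM, Slc25a12, an aspartate/glutamate carrier, at 452 ± 65.3 CPM, Slc25a11, the oxoglutarate carrier, at 371 ± 34.6 CPM and Slc25a51, the mitochondrial NAD carrier, at 139 ± 9.71 CPM (SD, n = 4 each). Slc25a12 and Slc25a11 overlapped in control level, at 386 to 534 and 324 to 405 CPM, while the other neighbours in this order did not.

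**Figure D1:**
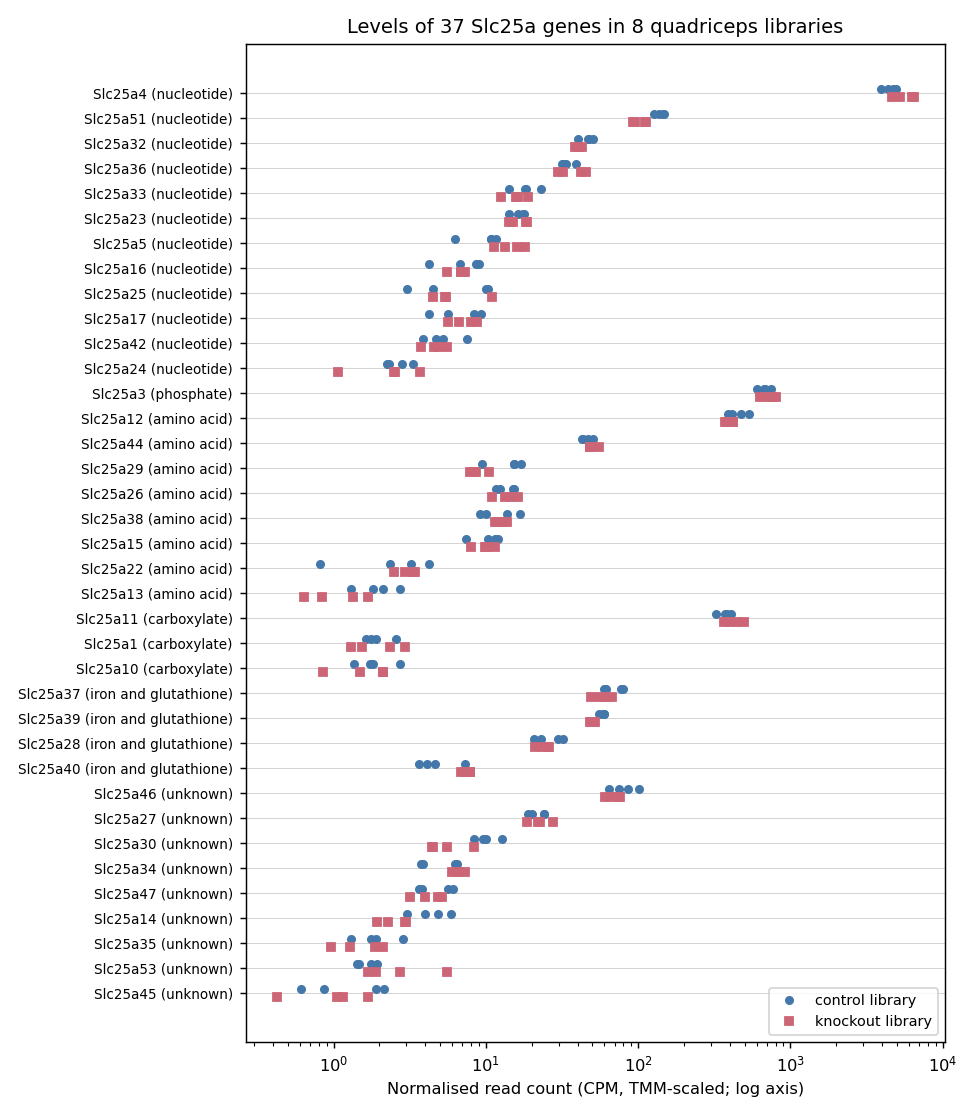
Normalised read count (CPM, log axis) of 37 of the 38 Slc25a genes in each of 4 control and 4 knockout libraries, grouped by substrate class and ordered by control mean within a class. Slc25a4 stands above all others in every library, and most genes overlap between the groups.

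Of the 38 members, 32 passed the filter on low counts and were tested. With edgeR (quasi-likelihood F test, adjusted p below 0.05), 2 were higher in the knockout (Slc25a4 and Slc25a5), 3 were lower (Slc25a51, Slc25a29 and Slc25a30) and 27 did not pass. The called members were 15.6% of those tested, against 15.7% of all 10691 tested genes and 20.2% of the tested genes with a mean of at least 10 CPM. The family's share was thus near the background, and its count is no result about the family as a whole. The median log2 fold change was -0.07 over the 32 members and 0.01 over all tested genes, with 15 members above 0 and 17 below. The knockout and control libraries did not overlap in 4 members (Slc25a51, Slc25a30, Slc25a14 and Slc25a39), against 19.2% of all tested genes.

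**Figure D2:**
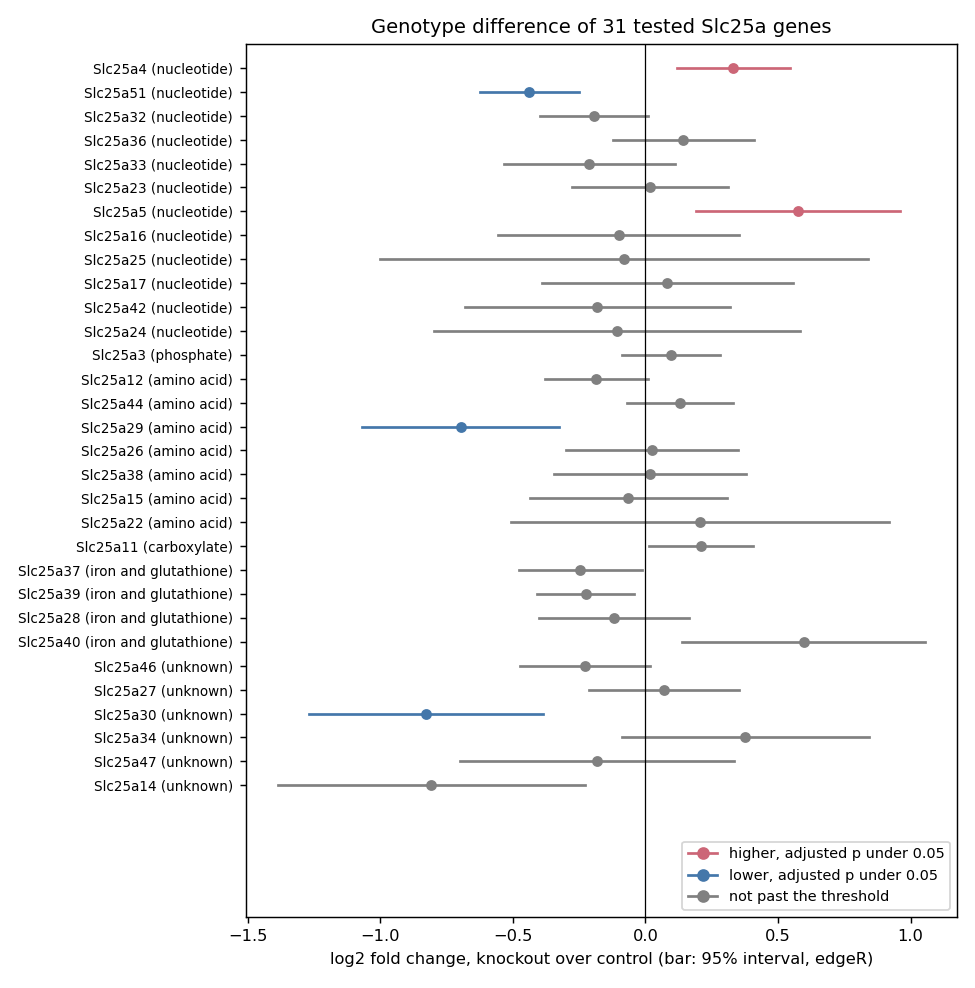
log2 fold change (knockout over control) with its 95% interval for 31 of the 32 tested Slc25a genes, coloured by the call at an adjusted p of 0.05. The 2 ADP/ATP carriers lie to the right of 0, Slc25a51, Slc25a29 and Slc25a30 lie to the left, and the other 26 drawn did not pass the threshold.

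Among 13 carriers of nucleotides and nucleotide-like cofactors, all tested, 2 rose, 1 fell and 10 did not pass. Both rising genes were ADP/ATP carriers. Slc25a4 (ENSMUSG00000031633, GRCm38 chromosome 8, 46206797 to 46211284, minus strand) stood at 4399, 4943, 4723 and 3914 CPM in controls 1 to 4 and at 4664, 6309, 5219.5 and 6436 CPM in knockouts 1 to 4. Knockouts 2 and 4 were clearly above every control, knockout 3 was slightly above, and knockout 1 lay within the control range. The mean rose 1.26-fold, with 4495 ± 447 CPM in controls against 5657 ± 858 CPM in knockouts (SD, n = 4 each). The log2 fold change was 0.33 (SE 0.10, edgeR adjusted p = 0.0284). The call was lost in 5 of the 8 fits that left out 1 library, with adjusted p-values of 0.0623 without control 1, 0.0554 without control 3, 0.0867 without control 4, 0.115 without knockout 2 and 0.155 without knockout 4. The size of the difference stayed between 0.25 and 0.41 (log2) in those 8 fits.

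Slc25a5, the more widely expressed ADP/ATP carrier (ENSMUSG00000016319, chromosome X, 36795651 to 36798807, plus strand), was far scarcer. It held 54, 53, 55 and 30 reads in controls 1 to 4 and 54, 95, 72 and 75 in knockouts 1 to 4. Control 4 lay apart below the other controls, and knockout 1 lay within the control range. The control mean was 9.86 ± 2.41 CPM and the knockout mean 14.7 ± 2.99 CPM (SD, n = 4 each), a rise of 0.58 on the log2 scale (SE 0.19, edgeR adjusted p = 0.0356). This call was also fragile: it was lost with DESeq2 (adjusted p = 0.0625), with library totals alone (0.0520), without control 3 (0.0569), without control 4 (0.132), without knockout 2 (0.146) and without knockout 4 (0.106). Slc25a4 and Slc25a5 are close relatives, and how multiply mapped reads were counted is not given in the sources used here. The small count of Slc25a5 is uncertain for that reason.

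Slc25a51 (ENSMUSG00000045973, chromosome 4, 45395923 to 45408766, minus strand), which imports NAD into the matrix, changed the other way and had the lowest p of the tested members. Controls 1 to 4 stood at 137, 146, 147 and 126 CPM and knockouts 1 to 4 at 92.2, 113, 95.7 and 110 CPM. Every knockout library was below every control library. The mean was 139 ± 9.71 CPM in controls against 103 ± 10.4 CPM in knockouts (SD, n = 4 each). This fall of 0.44 on the log2 scale (SE 0.09, edgeR adjusted p = 0.00132) was called in all 17 alternatives run, with adjusted p-values from 6.85e-05 to 0.00821. The annotation places a microRNA gene, Gm25692, inside the gene on the same strand.

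The remaining nucleotide and cofactor carriers did not pass. Mean levels of the folate and FAD carrier Slc25a32 were 46.4 ± 4.19 CPM (control) against 40.5 ± 1.72 CPM (knockout; SD, n = 4 each). The pyrimidine nucleotide carrier Slc25a33 stood at 14.2, 18.04, 18.2 and 23.1 CPM in controls 1 to 4 and 15.7, 18.9, 16.2 and 12.6 CPM in knockouts 1 to 4 (log2 fold change -0.21, SE 0.16). Its relative Slc25a36 stood at 33.6, 31.6, 31.9 and 39.1 CPM in controls 1 to 4 and 42.3, 32.3, 45.7 and 29.9 CPM in knockouts 1 to 4 (0.14, SE 0.13). Both overlapped between the groups, and the knockouts of Slc25a36 spread wider than its controls.

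The calcium-regulated ATP-Mg/phosphate carriers did not pass either. Slc25a23 stood at 16.2, 17.8, 17.4 and 14.1 CPM in controls 1 to 4 and 18.6, 14.1, 18.4 and 15.1 CPM in knockouts 1 to 4 (log2 fold change 0.02, SE 0.14). Slc25a25 stood at 4.52, 3.04, 9.99 and 10.3 CPM in controls 1 to 4 and 5.45, 10.9, 5.39 and 4.48 CPM in knockouts 1 to 4 (-0.08, SE 0.41). Controls 3 and 4 and knockout 2 were high for Slc25a25, so libraries of both groups differed from their own group by more than the groups differed. Slc25a24 had a log2 fold change of -0.11 (SE 0.33). The coenzyme A carriers Slc25a16 and Slc25a42 and the peroxisomal carrier Slc25a17 lay between -0.18 and 0.08 (log2).

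**Figure D3:**
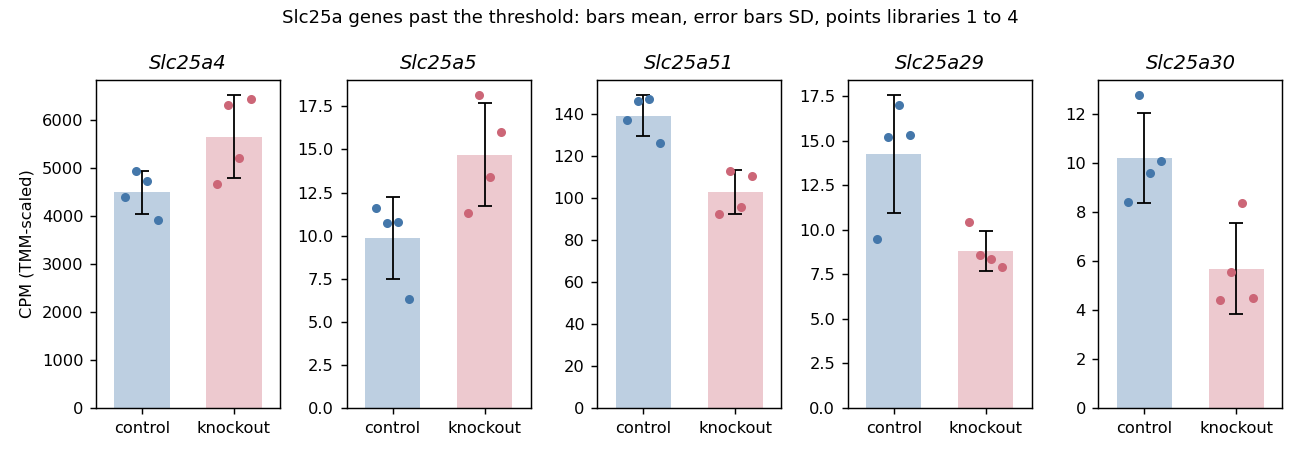
CPM of the 5 Slc25a genes past the threshold, with bars for group means, error bars for the SD and points for libraries 1 to 4 from left to right in each group. Slc25a51 and Slc25a30 are lower in every knockout than in every control, and the other 3 genes overlap.

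Promoter stretches of the called members are shown because they lie at or near the annotated starts of these genes. The 3′ reads do not show where the messages start. RefSeq promoter entries on GRCm38.p6 were matched by symbol for 29 of the 38 members, 4 of them called. For Slc25a5, Slc25a29 and Slc25a30 the line gives the 120 bases up to the RefSeq start (for Slc25a29, up to the earlier GENCODE start), 5′ to 3′ on the gene's strand. For Slc25a4 it gives only a motif match with 10 bases on each side. This match lies before the RefSeq start but inside the gene's GENCODE span, whose start is further out. Capitals mark a match to one of the motifs searched.
Slc25a4 (chr8:46211176-46211202, minus strand): cccctagctcCCGGAAGcgtcttcgcc
Slc25a5 (chrX:36795477-36795596, plus strand): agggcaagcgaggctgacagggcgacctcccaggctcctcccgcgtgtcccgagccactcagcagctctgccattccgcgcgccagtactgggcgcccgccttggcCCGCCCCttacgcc
Slc25a29 (chr12:108835884-108836003, minus strand): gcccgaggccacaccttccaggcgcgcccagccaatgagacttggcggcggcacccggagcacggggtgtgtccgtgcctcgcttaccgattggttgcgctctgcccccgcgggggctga
Slc25a30 (chr14:75787038-75787157, minus strand): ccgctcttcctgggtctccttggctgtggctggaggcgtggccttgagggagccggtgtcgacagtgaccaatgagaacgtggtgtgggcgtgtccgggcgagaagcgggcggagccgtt

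In the 250 bases before the start, on both strands, 7 motifs were searched. The ETS core CCGGAAG, bound by GABP, matched in Slc25a4, 130 to 124 bases before the RefSeq start, and in 4 of the 29 members with an entry, against 7.05% of 27025 genes. The GC box GGGGCGG, bound by Sp1, matched in Slc25a5, 14 to 8 bases before the start on the opposite strand, and in 15 of the 29 members, against 21.2% of all genes. The estrogen-related receptor site TNAAGGTCA and the TATA box TATAAA matched in 0 of the 29 (1.14% and 12.97% of all genes). The NRF1 core matched in 1 member, Slc25a3 (3.86% of all genes), the cAMP response element TGACGTCA in 2 (1.62%) and the MEF2-type core in 2 (3.23%). A match is a description of letters, not of binding. The shares of all genes were not matched for G and C content or for expression. A member counted if any of its entries matched, whereas for all genes only the first entry was searched. No excess or lack of a motif in the members is therefore read from these shares. The 250 bases of the 4 called genes were rich in G and C, at 61.6% to 71.2%, against a median of 52.0% over all genes. No such value is given for the uncalled members, so this is not read as a trait of the called genes. For Slc25a4, 222 of these 250 bases lie inside its GENCODE span.

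The single phosphate carrier, Slc25a3, which imports the phosphate used to make ATP, did not pass. It stood at 605, 748, 674 and 677 CPM in controls 1 to 4 and at 702, 751, 630.04 and 808 CPM in knockouts 1 to 4, so the groups overlapped widely. The log2 fold change was 0.10 (SE 0.09, edgeR adjusted p = 0.532), with a 95% interval from -0.09 to 0.28. Whether it differed from Slc25a4 in response was not tested.

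Among 8 amino acid carriers, counting the S-adenosylmethionine carrier Slc25a26, 7 were tested, of which 1 fell and 6 did not pass. Slc25a29 (ENSMUSG00000021265, chromosome 12, 108825873 to 108835883, minus strand), a carrier of basic amino acids, held 44, 75, 87 and 73 reads in controls 1 to 4 and 50, 45, 45 and 37 in knockouts 1 to 4. Control 1 was as low as the knockouts, and controls 2 to 4 were above all of them. The control libraries stood at 9.48, 15.2, 17.03 and 15.3 CPM and the knockout libraries at 10.5, 8.59, 8.36 and 7.89 CPM. The log2 fold change was -0.70 (SE 0.18, edgeR adjusted p = 0.00845), and the gene stayed called in all 17 alternatives, with adjusted p-values from 0.00112 to 0.0396.

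Slc25a12, the aspartate/glutamate carrier of muscle and brain and the highest of the class, stood at 416, 534, 474 and 386 CPM in controls 1 to 4 and at 384, 421, 369 and 419 CPM in knockouts 1 to 4. The groups overlapped, and its log2 fold change of -0.18 (SE 0.09, edgeR adjusted p = 0.203) did not pass. The branched-chain amino acid carrier Slc25a44 (log2 fold change 0.13, SE 0.10, with 43.0 to 50.4 CPM in controls and 47.9 to 55.0 CPM in knockouts) did not pass either. The glycine carrier Slc25a38, the S-adenosylmethionine carrier Slc25a26, the ornithine carrier Slc25a15 and the glutamate carrier Slc25a22 had log2 fold changes between -0.07 and 0.21. Slc25a22 had 4 to 20 reads per library, and its 95% interval ran from -0.51 to 0.92.

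Among 3 carboxylate carriers only the oxoglutarate carrier Slc25a11, which exchanges malate for oxoglutarate in the malate-aspartate shuttle, was tested. It stood at 371, 405, 384 and 324 CPM in controls 1 to 4 and at 403, 446, 368 and 498 CPM in knockouts 1 to 4. Knockouts 2 and 4 were the highest libraries, as for Slc25a4. The log2 fold change of 0.21 (SE 0.10, edgeR adjusted p = 0.150) did not pass, and adjusted p-values over 17 alternatives ran from 0.0728 to 0.511. The citrate carrier Slc25a1 and the dicarboxylate carrier Slc25a10 had 7 to 14 and 4 to 13 reads per library and were too scarce to test in the main fit.

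The iron and glutathione carriers, Slc25a37 and Slc25a28 (mitoferrins) and Slc25a39 and Slc25a40 (glutathione import), were all tested. By edgeR 0 of 4 passed, also 0 with DESeq2 and voom, while 3 had an unadjusted p under 0.05. Slc25a39 stood at 59.7, 59.8, 55.4 and 58.8 CPM in controls 1 to 4 and at 50.5, 49.3, 48.3 and 51.8 CPM in knockouts 1 to 4. Its groups did not overlap, but the difference was small (log2 fold change -0.23, SE 0.09) and the edgeR adjusted p of 0.0906 missed the threshold, with 0.0506 to 0.192 over the alternatives. Its relative Slc25a40 had the opposite sign, with 19, 18, 37 and 22 reads in controls 1 to 4 and 35, 41, 42 and 32 in knockouts 1 to 4. Control 3 lay within the knockout range, and the log2 fold change of 0.60 (SE 0.22, edgeR adjusted p = 0.0710) did not pass, though it did without control 3 (0.0163). 

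Of the mitoferrins, Slc25a37, which is also high in red cell precursors, stood at 61.6, 79.7, 77.1 and 59.3 CPM in controls 1 to 4 and 56.1, 67.2, 49.2 and 61.9 CPM in knockouts 1 to 4 (log2 fold change -0.25, SE 0.11, edgeR adjusted p = 0.150). Slc25a28 stood at 31.9, 20.7, 22.9 and 29.6 CPM in controls 1 to 4 and 21.2, 26.0, 25.6 and 23.7 CPM in knockouts 1 to 4 (-0.12, SE 0.14). The groups overlapped for both. Of the erythroid markers 0 of 5 tested genes passed by edgeR, 0 had an unadjusted p under 0.05, and the 7 listed genes summed to 667 to 870 CPM in controls and 536 to 869 CPM in knockouts.

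Of 9 members placed here under unknown substrate, 6 were tested, 1 fell and 5 did not pass. Slc25a30 (ENSMUSG00000022003, chromosome 14, 75760117 to 75787037, minus strand), a relative of the uncoupling proteins, held 39, 63, 49 and 48 reads in controls 1 to 4 and 21, 29, 45 and 21 in knockouts 1 to 4. On the CPM scale knockout 3, at 8.36, lay just under control 1, at 8.40, and the other knockouts were well below. The means were 10.2 ± 1.85 CPM in controls and 5.69 ± 1.85 CPM in knockouts (SD, n = 4 each). On the log2 scale the level fell by 0.83 (SE 0.21, edgeR adjusted p = 0.00836). It stayed called in all 17 alternatives, with adjusted p-values from 0.00117 to 0.0356.

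Slc25a14, another relative of the uncoupling proteins, had a similar value without passing. It held 14, 24, 30 and 19 reads in controls 1 to 4 and 14, 12, 16 and 9 in knockouts 1 to 4, and its CPM values did not overlap between the groups, with 2.97 in knockout 3 against 3.02 in control 1. The log2 fold change was -0.81 (SE 0.28, edgeR adjusted p = 0.0516), and 5 of 16 alternatives called it, with adjusted p-values from 0.0263 to 0.186. The third such relative, Slc25a27, had a value of 0.07 (SE 0.14). Slc25a46, an outer membrane protein involved in mitochondrial dynamics and the highest of the class, stood at 74.3, 101, 85.2 and 64.5 CPM in controls 1 to 4 and at 65.4, 75.2, 60.4 and 76.4 CPM in knockouts 1 to 4. Its groups overlapped (log2 fold change -0.23, SE 0.12, edgeR adjusted p = 0.210), and it passed only without control 4 (0.0433). Slc25a34 and Slc25a47 had values of 0.38 (SE 0.22) and -0.18 (SE 0.25).

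The 6 members that were not tested in the main fit, Slc25a1, Slc25a10, Slc25a13, Slc25a35, Slc25a45 and Slc25a53, had control means of 1.38 to 1.99 CPM. On library totals without the TMM correction, 3 reads correspond to between 0.555 and 0.681 CPM. When every gene with 40 reads was fitted (12133 genes), their log2 fold changes ran from -0.81 (Slc25a13, SE 0.40) to 0.80 (Slc25a53, SE 0.38), and none passed, with edgeR adjusted p-values of at least 0.175. Slc25a53 held 26 reads in knockout 4 against 7 to 13 in the other 7 libraries. The 8 symbols under 40 reads included Slc25a31, the ADP/ATP carrier of the testis, with 1 read in all, and Slc25a21 and Slc25a54 with 0 of 39734940 reads, which allows a level of up to 0.0755 CPM. Slc25a41 held 0 reads in every control and 2, 3, 2 and 1 in knockouts 1 to 4. Slc25a2 held 23 reads, and Slc25a18, Slc25a43 and Slc25a48 held 1, 3 and 5.

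Ratios of related members, which need no scaling between libraries, were compared in 6 pairs with an exact permutation test (two-sided, over the 8 libraries), in which no p can be below 0.0286. A seventh pair, Slc25a22 and Slc25a18, was left out because libraries held 0 reads of Slc25a18. Slc25a39 reads outnumbered Slc25a40 reads 14.6, 16.4, 7.65 and 12.7 to 1 in controls 1 to 4 and 6.89, 6.29, 6.19 and 7.59 to 1 in knockouts 1 to 4. All knockouts were below all controls, with knockout 4 only just below control 3. The difference was -0.88 on the log2 scale (exact p = 0.0286, adjusted p = 0.172 over the 6 pairs), so the ratio did not pass after adjustment. Slc25a4 outnumbered Slc25a5 by 378 to 621 to 1 in controls and 348 to 412 to 1 in knockouts (log2 difference -0.27, exact p = 0.114, adjusted p = 0.257). That ratio shares the uncertainty of the Slc25a5 count given above. Slc25a13 held only 6, 9, 14 and 10 reads in controls 1 to 4 and 4, 7, 9 and 3 in knockouts 1 to 4. Slc25a12 outnumbered Slc25a13, the aspartate/glutamate carrier of liver, by 173 to 322 to 1 in controls and 221 to 654 to 1 in knockouts (0.70, exact p = 0.143, adjusted p = 0.257). The log2 differences for Slc25a28 to Slc25a37, Slc25a33 to Slc25a36 and Slc25a23 to Slc25a25 were 0.14, -0.33 and 0.01, with exact permutation adjusted p-values of at least 0.257.

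**Figure D4:**
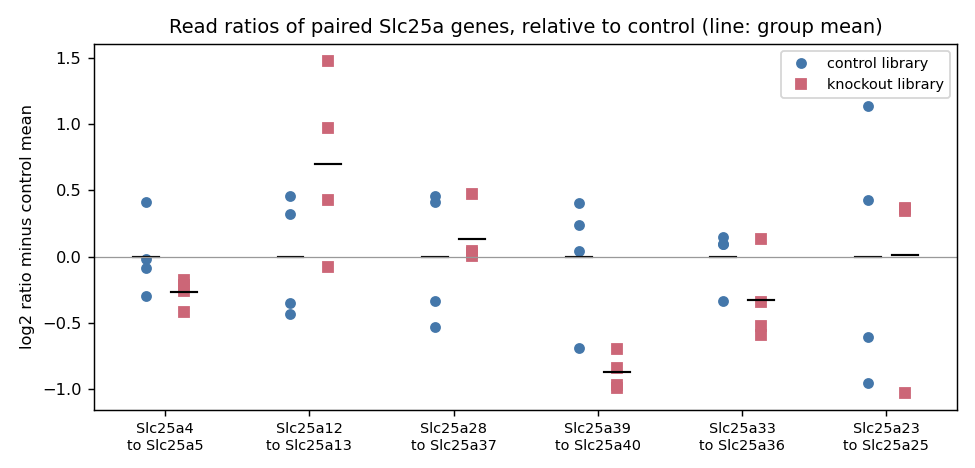
log2 read ratio of 6 pairs of related Slc25a genes in each library, relative to the mean of the 4 controls, with a line at each group mean. Only the ratio of Slc25a39 to Slc25a40 separates the groups completely.

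Other mitochondrial carriers and channels outside the Slc25a symbols had 4 of 22 tested genes higher and 1 lower, with a median log2 fold change of 0.13. Over all tested genes 8.87% were called higher and 6.8% lower, with a median of 0.01. These shares are the background for the small lists that follow, from which nothing is read as particular to a list. The lower gene was Ucp3, the muscle uncoupling protein of the same carrier family, at 85.9, 69.1, 58.1 and 74.6 CPM in controls 1 to 4 and 37.1, 47.4, 41.4 and 58.0 CPM in knockouts 1 to 4. Its groups were almost touching, with knockout 4 just below control 3, and the log2 fold change was -0.65 (SE 0.13). The outer membrane channel Vdac3 (0.35, SE 0.10) and the transporter Abcb8 (0.50, SE 0.14) rose. In the calcium uniporter complex 0 of 6 tested genes passed by edgeR or DESeq2, and 0 had an unadjusted p under 0.05. By class of partner, energy export genes had 2 of 10 higher and 1 lower (median 0.20): Atpif1, the inhibitor of ATP synthase (0.87, SE 0.13), and Ckmt2, the mitochondrial creatine kinase that uses ATP exported by the ADP/ATP carriers (0.43, SE 0.10), rose, and hexokinase 2, Hk2 (-0.44, SE 0.08), fell.

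The enzymes that share substrates with the amino acid carriers had 1 of 12 higher and 3 lower (median -0.17), with falls among them in Bcat2 (-0.75, SE 0.20) and Bckdhb (-0.34, SE 0.11) of branched-chain amino acid breakdown. Carboxylate partner enzymes had 3 of 9 higher and 1 lower (median 0.21). Malic enzyme 3, Me3 (0.67, SE 0.11), rose, and pyruvate carboxylase, Pcx (-0.46, SE 0.09), fell. Of the 4 malate-aspartate shuttle enzymes Mdh1 rose (0.28, SE 0.09) and the other 3 did not pass. Iron-sulfur cluster, haem and glutathione genes had 0 of 14 called by edgeR and by DESeq2, with 5 at an unadjusted p under 0.05. Nucleotide and cofactor partners had 1 of 11 higher, the folate enzyme gene Mthfd2 (0.71, SE 0.23; 0 higher with DESeq2), and 1 lower, the coenzyme A synthase gene Coasy (-0.46, SE 0.14). In the list of biogenesis regulators 3 of 14 were higher (1 with DESeq2) and 1 lower. The mitochondrial transcription factor gene Tfam (0.44, SE 0.13) and the nuclear receptor gene Esrrg (0.57, SE 0.19) rose, and Gabpa (-0.79, SE 0.21), a subunit of GABP, fell.

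Markers of mitochondrial content and of fibre type were counted beside the carriers. Of 11 tested content markers 1 passed, the complex III gene Uqcrc2 (log2 fold change 0.35, SE 0.08), and the median was 0.22 against 0.01 over all tested genes. By edgeR 6 of the 11 had an unadjusted p under 0.05. Their log2 fold changes ran from 0.06 (Hspd1) to 0.40 (Etfa) over the 11 genes. The summed level of the 12 listed content markers was 2354 to 2505 CPM in controls and 2606 to 3116 CPM in knockouts. Of 6 tested slow and oxidative fibre markers 3 rose (Mb, Myoz2 and Myl3) and 0 fell, with a median log2 fold change of 1.21. By edgeR 4 of the 6 had an unadjusted p under 0.05. The others did not pass, with Myh2 at 1.46 (log2, SE 0.41), Tnnt1 at 1.09 (SE 0.89) and Atp2a2 at -0.14 (SE 0.17). The summed level of all 10 listed markers was 3016 to 4084 CPM in controls and 4836.5 to 8220.2 CPM in knockouts. This sum is mostly Mb, with means of 2958 CPM in controls and 5393 CPM in knockouts. The slow fibre genes Myh7, Myl2, Tnni1 and Tnnc1 were too scarce to test. Myoglobin, Mb, stood at 2769, 3464, 2801 and 2797 CPM in controls 1 to 4 and 6331, 4994, 4102 and 6144 CPM in knockouts 1 to 4. Knockout 1 was the highest for Mb and the lowest of the knockouts for Slc25a4. Knockouts 4, 2 and 3 ranked in the same order for both genes, at 6436, 6309 and 5219.5 CPM for Slc25a4. Fast fibre markers had 1 of 10 higher, Mylpf (log2 fold change 0.43, SE 0.09), and 1 lower, Myh4 (-0.31, SE 0.09). By edgeR 5 of these 10 had an unadjusted p under 0.05, the called genes among them. The part of fibre makeup or mitochondrial content in the carrier differences was not tested, and in whole muscle a change in the number of cells of a type and a change in message per cell cannot be told apart.

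**Figure D5:**
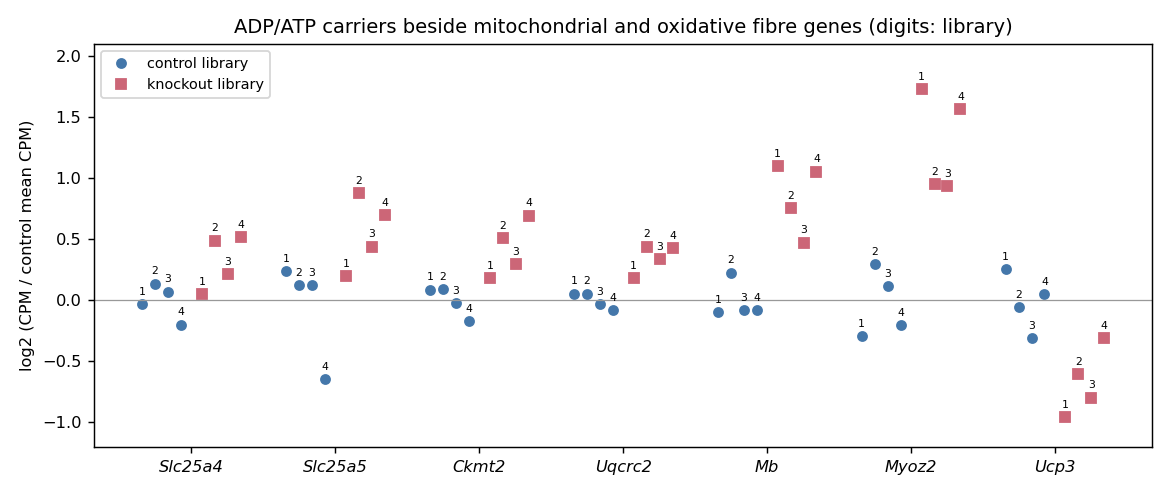
Level of 7 genes in each library relative to the control mean (log2), with the library number above each point. The ADP/ATP carrier genes Slc25a4 and Slc25a5, Ckmt2 and Uqcrc2 are lowest in knockout 1 among the knockouts, whereas Mb and Myoz2, a slow fibre Z-disc gene, are highest there, and Ucp3 is lower in all knockouts. Knockouts 4, 2 and 3 rank in the same order for Slc25a4 and Mb.

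Markers of other cell types were counted in the same libraries. Macrophage markers had 3 of 6 tested genes lower (Cd163, C1qb and Csf1r), and the 7 listed genes summed to 68.5 to 112 CPM in controls and 51.4 to 76.9 CPM in knockouts. Progenitor (fibro-adipogenic) markers had 1 of 7 lower, Dcn, with sums of 505 to 615 and 418 to 506 CPM. By edgeR 3 of these 7 had an unadjusted p under 0.05, Dcn (log2 fold change -0.27), Dpt (-0.36) and Pdgfra (-0.46). The list median was -0.21, and Col1a1 lay above 0 at 0.07. Endothelial, adipocyte, satellite cell, Schwann cell, erythroid and smooth muscle lists had 0 called genes by edgeR, with 1 endothelial and 1 smooth muscle gene at an unadjusted p under 0.05. Of the brown adipocyte list Cox7a1 and Cox8b rose, both respiratory subunits that muscle also makes, while the defining gene Ucp1 was at 0 reads in all libraries. Cidea, of the same list, had means of 4.26 CPM in controls and 6.29 CPM in knockouts and did not pass (log2 fold change 0.55, SE 0.23). By edgeR 3 of the 4 tested genes of this list had an unadjusted p under 0.05. The part of these cells in the carrier differences was not tested.

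Library totals ran from 4404116 to 5405999 reads, and the targeted gene followed the labels. Gpcpd1 held 688 to 771 reads per control library and 145 to 193 per knockout library, and the knockout level was 23.5% of control (edgeR adjusted p = 2.1e-13). Of 10691 tested genes 948 were higher and 727 lower in the knockout, or 8.87% and 6.8%. With library totals alone the balance turned, with 829 higher and 901 lower, so that 47.9% of called genes were higher, against 56.6% with TMM. Fast fibre markers summed to between 175370 and 212440 CPM in the controls and between 191210 and 206090 CPM in the knockouts, so the defining genes of fast muscle, as in quadriceps, were present in all libraries.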

How the data were processed

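Quadriceps RNA of 8 libraries, 4 per genotype, was made into QuantSeq FWD 3′ libraries per the labels' protocols. For each library the authors deposited a table of raw counts by Ensembl identifier. Tools in the submitters' processing notes are Subread 1.6.2, featureCounts and Bowtie2 2.3.4.1, with GRCm38 and mm10 as builds. Annotation release, strand setting and handling of multiply mapped reads: not given in the sources used here. Counts of overlapping genes are therefore uncertain. Names and coordinates came from GENCODE M21 (GRCm38), which matched 54495 of 54532 genes.

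The fit used edgeR 4.0.16 under R 4.3.3: filterByExpr (minimum count 10, minimum total 15), TMM scaling, and the robust quasi-likelihood F test of genotype. Adjusted p-values are Benjamini-Hochberg over the 10691 genes tested (threshold 0.05). SE is the log2 fold change over the square root of F, and intervals are 95%. Means are given with the SD over 4 libraries. The floor is 3 reads and covers counting error only. No pair of libraries agreed within sampling noise by a chi-square test of counts. Alternatives were DESeq2 1.42.0, limma 3.58.1 voom, non-robust edgeR, 3 other scalings, 3 other filters and leaving out each library. The procedure was tested on simulated counts.

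Values were printed per library for called members, the highest member of each class, both members of tested pairs, and uncalled members with an absolute log2 fold change of at least 0.5. For partner lists up to 3 called genes of lowest p were named. Members, classes and lists were chosen with earlier results of these data known. Some genes of the family and of the partner lists are not reported here.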

Additional observations from a re-analysis of the deposited data

Results flagged for a closer look

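In 3 of 76 groups of 4 libraries (38 members, 2 genotypes) 1 library lay far from the other 3, with a gap past Dixon's 95% critical value for 4 samples. Chance alone gives such a gap in about 1 of 20 groups. Slc25a5 stood at 6.31 CPM in control 4 against 10.7 to 11.6 CPM in the other controls, and its rise was not called without that library. Slc25a25 stood at 10.9 CPM in knockout 2 against 4.48 to 5.45 CPM in the other knockouts. Slc25a44 stood at 55.0 CPM in knockout 3 against 47.9 to 49.0 CPM in the other knockouts.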

How the results depend on the processing

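The falls of Slc25a51, Slc25a29 and Slc25a30 were called in all 17 alternatives, and the number of lower members was 3 or 4 throughout. The number of higher members, 2 in the main analysis, was 1 with DESeq2, 1 with library totals alone and 0 to 2 when 1 library was left out (0 without control 4, knockout 2 or knockout 4). The total of 5 ran from 3 to 5 when 1 library was left out. The cause was not tested. No called member changed sign. Among uncalled members near 0, the sign turned for Slc25a23 with library totals alone (-0.0174) and with a filter of 1 read (-0.0005), for Slc25a26 (-0.0097) and Slc25a38 (-0.0208) with library totals alone, for Slc25a38 with a filter of 1 read (-0.0003) and for Slc25a25 with voom (0.0091). When 1 library was left out, values ran from -0.198 to 0.0236 for Slc25a15, -0.297 to 0.0257 for Slc25a16, -0.10 to 0.25 for Slc25a17, -0.11 to 0.51 for Slc25a22, -0.0531 to 0.0878 for Slc25a23, -0.39 to 0.11 for Slc25a24, -0.45 to 0.15 for Slc25a25, -0.0634 to 0.114 for Slc25a26, -0.0419 to 0.159 for Slc25a27, -0.12 to 0.19 for Slc25a38 and -0.321 to 0.0255 for Slc25a42. Partner counts moved as follows: with library totals alone, 2 lower other carriers, 0 higher amino acid partners, 1 lower iron-sulfur partner and 0 higher nucleotide partners. With DESeq2 there were 0 higher amino acid partners, 0 higher nucleotide partners and 1 higher biogenesis regulator. The intervals of Slc25a14, Slc25a22, Slc25a24, Slc25a25 and Slc25a47 were wider than 1 log2 unit, and all but Slc25a25 lie under 5 CPM in controls, where read depth limits what can be detected. No paired analysis was possible because no label pairs a control library with a knockout library, and replicate numbers only name samples.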
